A study of Mus musculus with 40 samples.

Results

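The genes described here are 10 members of the machinery that decides passage from G1 into S phase: the D-type cyclins Ccnd1, Ccnd2 and Ccnd3, their kinases Cdk4 and Cdk6, the E-type cyclins Ccne1 and Ccne2, their kinase Cdk2, the inhibitor Cdkn1a and the pocket protein Rb1. They were found by exact match of the platform's gene symbol, which gave 10 of 18193 genes with a symbol and 28 probe sets of 45037 on 2 Affymetrix array types, 21 on 430A and 7 on 430B. The arrays measured oocytes of 5 follicle stages with 4 replicates per stage and array type, 40 samples in all. Primordial oocytes came from mice aged 2 days in pools of 400, primary oocytes from day 6 in pools of 90, secondary from day 12 in pools of 60, small antral from day 17 in pools of 30 and large antral from day 24 in pools of 20. All donors were SJLB6 females, with no treatment or altered allele named in the labels. Stage, age and pool size change together and cannot be told apart. The replicates are labelled biological, but which animals each pool drew on is not stated, and the p-values therefore describe variation between pools that may be partly technical.

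In dividing cells, D-type cyclins bind Cdk4 and Cdk6 and start the phosphorylation of Rb1, which releases E2F transcription factors. E2F activates the genes of the E-type cyclins, and cyclin E with Cdk2 completes the phosphorylation of Rb1. Cdkn1a, also called p21, binds and inhibits cyclin E and Cdk2 complexes. Oocytes in these follicles are arrested in meiotic prophase and grow without dividing, while the granulosa cells around them proliferate and depend on Ccnd2 to do so.

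A value here is the deposited MAS5 signal of a probe set after each array was brought to a trimmed mean of 500, and a log2 change is a difference of log2(signal + 32), which understates the changes of low signals. A change was called at an adjusted p under 0.05 in limma's test over all probe sets of the array type, and signals of different probe sets are not set against each other. All 11 oocyte markers listed were tested, and their summed signal ran from 59332 to 81787 in primordial samples, from 165244 to 173334 in primary and from 134528 to 147518 in large antral samples. Between 57.4% and 64.7% of probe sets reached 100 on the 430A arrays and between 65.8% and 77.9% on the 430B arrays. In bulk samples, fewer cells of a type and less RNA per cell cannot be told apart.

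Primordial replicates 2 to 4 have the form of means with replicate 1. When replicate 1 was subtracted from their doubled values, 0 of the 22526 probe sets checked on 430A came out negative, and 0 of the 22411 on 430B. The same subtraction in the 48 ordered pairs of other stages gave 1120 to 2857 negative values for 430A, and for 430B 1989 to 3790. The primordial spread is therefore understated as deposited, and changes were also computed with that subtraction, called unmixed values below. Comparisons without the primordial stage are affected by it mainly through the spread that the fit shares over all stages. The protocol text of 3 small antral 430B samples carries the secondary stage's age and pool size, against their titles. Their correlation with the other small antral samples lay between 0.924 and 0.932, and with the secondary samples between 0.911 and 0.922. For each of them, the other small antral samples were mostly the remaining ones with this protocol text. The correlations therefore cannot decide between title and protocol.

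The E-type cyclins and Cdk2 shared a course: all 3 genes were higher at the primary stage than at the primordial stage and lower at the small antral stage than at the secondary stage. Of the members found in the RefSeq promoter table (6 of 10 genes, 8 windows of 250 bases before to 50 after a start, build GRCm38.p6), Ccne1 and Cdk2 are printed because their transcripts moved at the same 2 transitions. The Ccne1 window is chr7:38107441-38107740 and the Cdk2 window chr10:128705002-128705301, both on the minus strand and written 5′ to 3′ along the gene. Capitals mark matches to E2F cores.
Ccne1: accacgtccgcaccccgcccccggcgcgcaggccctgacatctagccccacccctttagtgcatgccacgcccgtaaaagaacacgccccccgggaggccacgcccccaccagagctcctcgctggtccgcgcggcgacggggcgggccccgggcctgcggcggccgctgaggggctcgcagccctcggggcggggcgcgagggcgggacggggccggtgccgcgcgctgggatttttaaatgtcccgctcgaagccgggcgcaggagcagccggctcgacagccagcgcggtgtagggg
Cdk2: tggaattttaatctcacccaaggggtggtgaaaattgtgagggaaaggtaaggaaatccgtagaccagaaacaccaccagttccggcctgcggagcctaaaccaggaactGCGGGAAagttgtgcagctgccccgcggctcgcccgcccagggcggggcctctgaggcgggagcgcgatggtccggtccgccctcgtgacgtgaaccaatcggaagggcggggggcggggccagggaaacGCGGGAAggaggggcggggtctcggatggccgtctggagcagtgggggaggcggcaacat
The cores TTGGCGC and TTCCCGC and also TTCGCGC were searched on both strands, and 1 of the 8 windows held a match. That window was the one of Cdk2, with TTCCCGC on the opposite strand at positions -140 to -134 and -10 to -4, counted from the annotated start as 0. At least 1 of these cores stood in 8.07% of all 32851 promoters in the table, and TTCCCGC in 4.6%. A match is a description of letters, and the Ccne1 window held none of these letters.

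Ccne1 encodes cyclin E1, the activating partner of Cdk2. Its brighter probe set, 1441910_x_at on 430B, read 1504, 1414, 1422 and 1366 in primordial samples, 4199, 3657, 3724 and 3164 in primary samples and 3829, 4228, 3122 and 4082 in secondary samples. It read 2150.2, 1294, 1518 and 2122 in small antral samples and 947, 1238, 1403 and 1378 in large antral samples. Every primary sample lay above every primordial sample, and every small antral sample below every secondary sample. Primary against primordial, Ccne1 rose by 1.34 ± 0.15 on the log2 scale (SE, adjusted p = 1.6e-07), and by 1.40 ± 0.17 with unmixed values (adjusted p = 5.8e-07). Small antral against secondary it fell, with a log2 change of -1.12 ± 0.15 (adjusted p = 2e-05). Of the 4 small antral samples, 3 carry the conflicting protocol, and the other one is the sample at 2150.2. Without the 3 the change was -0.81 (adjusted p = 0.033), which rests on 1 small antral sample assumed to vary like the samples of the other stages. Large antral against small antral the change was -0.49 with all samples (adjusted p = 0.11) and -0.79 without the 3. It passed without small antral replicate 2, at -0.62 (adjusted p = 0.025). The change large antral against primary was -1.55 ± 0.15 (adjusted p = 2.6e-08). A probe set whose name ends in _x_at can hold probes that bind other transcripts.

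The other Ccne1 probe set, 1416492_at on 430A, averaged 170.4 ± 9.96, 228 ± 45.4, 256 ± 39.2, 136 ± 24.2 and 148 ± 31.1 from primordial to large antral (SD, n = 4 each). It fell small antral against secondary by the same test, at -0.78 ± 0.17 (adjusted p = 0.0017), and the small antral and secondary samples did not overlap. Its change between primary and primordial samples was 0.35 ± 0.17 (adjusted p = 0.08), and it passed with quantile normalization at 0.46 (adjusted p = 0.025) and with scaling to a common median at 0.48 (adjusted p = 0.022). Large antral against primary it fell, at -0.53 ± 0.17 (adjusted p = 0.013), and missed without primary replicate 2 (adjusted p = 0.061) or without large antral replicate 3 (adjusted p = 0.07).

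Ccne2 encodes cyclin E2, the second E-type partner of Cdk2, and spanned the widest range of all members, 2.81 on the log2 scale between stage means. Its probe set 1422535_at read 180, 246, 353 and 308 in primordial samples, 734, 709, 550.1 and 729.9 in primary samples and 991, 970.2, 1410.1 and 1246 in secondary samples. It read 381, 246, 231 and 428 in small antral samples and 111, 159, 170.1 and 107 in large antral samples. The secondary samples were the highest and the large antral samples the lowest, and only the primordial and small antral stages, neighbours in the order of levels, overlapped.

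Primary against primordial, Ccne2 rose by 1.26 ± 0.20 (adjusted p = 7.8e-06), and by 0.91 ± 0.25 with unmixed values (adjusted p = 0.0048). The rise at the secondary stage against the primary stage was 0.73 ± 0.20 (adjusted p = 0.012), and it missed in the fit with unmixed values (adjusted p = 0.082). In a fit without the primordial stage this rise was called (adjusted p = 0.0077). Ccne2 then fell small antral against secondary, at -1.77 ± 0.20 (adjusted p = 7.8e-07), and again large antral against small antral, at -1.04 ± 0.20 (adjusted p = 0.0016). Large antral oocytes had 0.235 times the primary signal on the same scale, a log2 change of -2.09 ± 0.20 (adjusted p = 7.1e-09).

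Cdk2, the kinase that cyclins E1 and E2 activate, had its highest level at the primary stage. Probe set 1416873_a_at read 98.9, 161, 136 and 178 in primordial samples, 454, 519.6, 535 and 369.8 in primary samples and 273, 368, 333 and 349.6 in secondary samples. It read 187, 204, 196 and 177 in small antral samples and 207, 204, 199 and 236 in large antral samples. The primary samples lay above those of every other stage, by a narrow margin over the highest secondary sample, and the small and large antral samples overlapped.

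Cdk2 rose primary against primordial, by 1.52 ± 0.15 (adjusted p = 5.8e-09) and by 1.21 ± 0.20 with unmixed values (adjusted p = 2.7e-05). It fell small antral against secondary, at -0.70 ± 0.15 (adjusted p = 0.0018), and large antral against primary, at -1.03 ± 0.15 (adjusted p = 5e-06). Between the secondary and primary stages the change was -0.46 ± 0.15 (adjusted p = 0.034), and the call was lost with unmixed values (adjusted p = 0.18), with no filter (adjusted p = 0.053) and without primary replicate 1, 2 or 3 or secondary replicate 1, 3 or 4 (adjusted p between 0.05 and 0.11). The call was kept without the primordial stage (adjusted p = 0.016). The other Cdk2 probe set, 1447617_at, reached 100 on 0 arrays and was not tested.

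**Figure D1:**
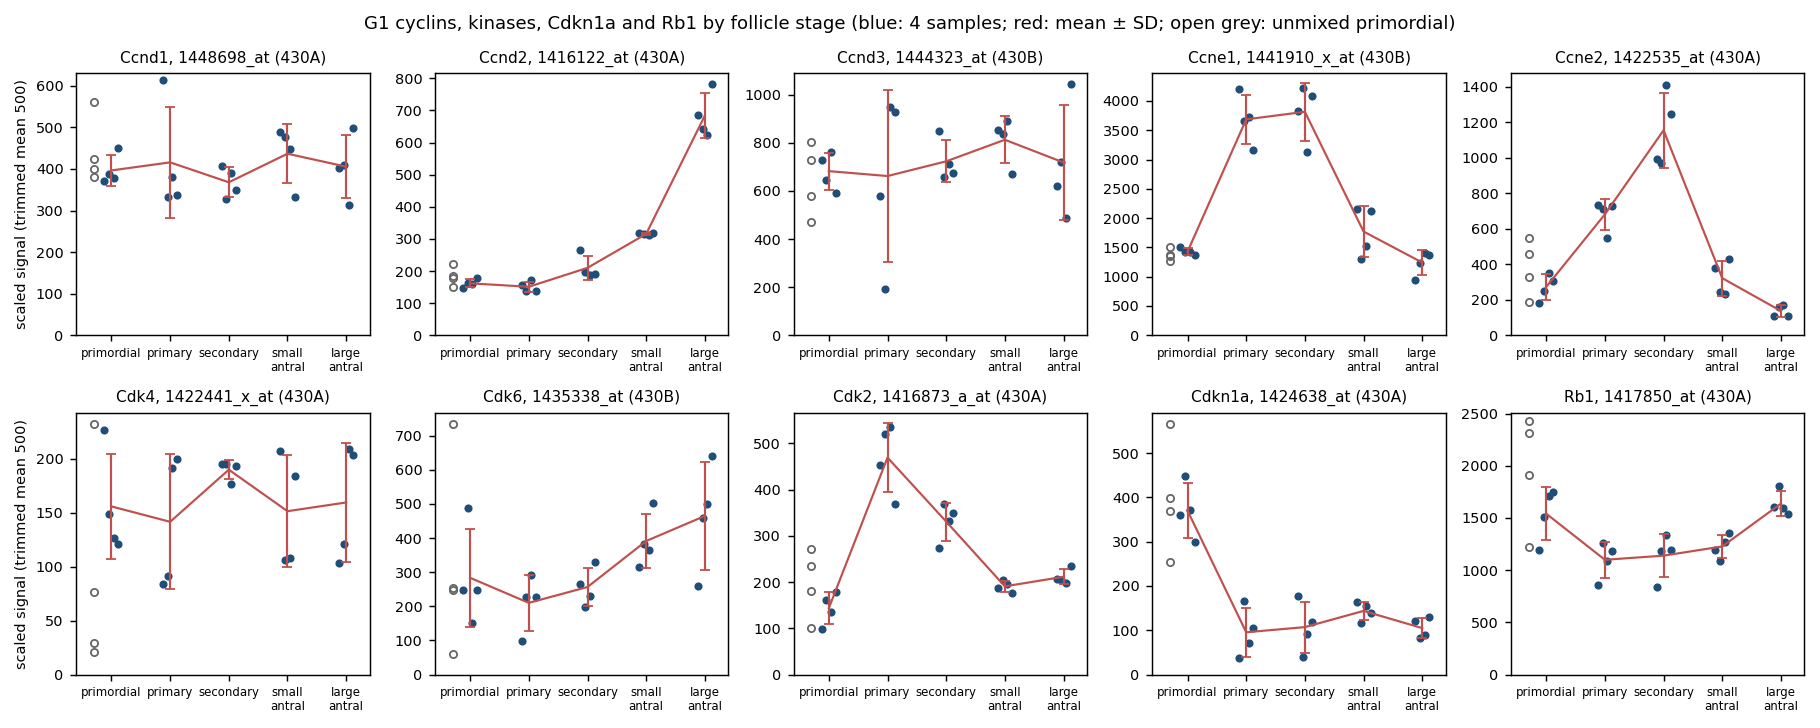
Scaled signal (y axis, trimmed mean of each array 500, starting at 0) against follicle stage (x axis) for the brightest tested probe set of each of the 10 genes. Blue points are the 4 samples, red lines and bars the mean ± SD, and open grey points the unmixed primordial values. Ccne1, Ccne2 and Cdk2 peak at the primary or secondary stage, Ccnd2 is highest in large antral samples (623 to 784), and Cdkn1a is highest in primordial samples (299 to 449).

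Among the D-type cyclins, Ccnd2 was the one whose signal rose through the antral stages. Its brightest probe set, 1416122_at, read 147, 162, 159.8 and 178 in primordial samples, 155, 138, 172 and 139 in primary samples and 266, 196, 188 and 189 in secondary samples. It read 319.5, 314, 312 and 317 in small antral samples and 686, 644, 623 and 784 in large antral samples. The primordial and primary samples overlapped, and from the secondary stage on each stage lay wholly above the one before.

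From the primary to the large antral stage Ccnd2 rose, to 3.91 times the signal on the log2(signal + 32) scale, a change of 1.97 ± 0.13 (adjusted p = 1.1e-11). The step at the small antral stage against the secondary stage was 0.53 ± 0.13 (adjusted p = 0.0043), and at the large antral stage against the small antral stage 1.04 ± 0.13 (adjusted p = 2e-05). The earlier step, secondary against primary, was 0.40 ± 0.13 (adjusted p = 0.032). Secondary replicate 1 stood above the other 3 secondary samples, and without it this step was 0.29 (adjusted p = 0.13). The step was also lost with unmixed values (adjusted p = 0.1), in a fit of the 2 stages alone (adjusted p = 0.11) and without primary replicate 2 or 4 (adjusted p = 0.084 and 0.079). It was kept without the primordial stage (adjusted p = 0.029). Between primary and primordial oocytes Ccnd2 differed by -0.08 ± 0.13 (adjusted p = 0.6).

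A second Ccnd2 probe set, 1434745_at, read 151, 124, 123 and 93.3 in secondary samples, 302, 309, 289 and 307 in small antral samples and 709, 486, 526 and 507 in large antral samples. It rose by 1.12 ± 0.19 small antral against secondary (adjusted p = 0.00013) and by 2.15 ± 0.19 large antral against primary (adjusted p = 1.7e-09). Its last step, large antral against small antral, was 0.80 ± 0.19 (adjusted p = 0.0075), and missed with unmixed values (adjusted p = 0.06). Without the primordial stage this step was called (adjusted p = 0.0071). The probe sets 1448229_s_at, 1430127_a_at and 1455956_x_at reached 100 on only 8, 7 and 7 of the 20 arrays, mostly antral, so they passed the filter through the stages where they were high and had to differ. Their large antral against primary changes were 1.72, 1.62 and 1.64. They split over the steps: 1448229_s_at was called at the small antral step (1.18, adjusted p = 0.00038), 1430127_a_at at the large antral step (1.15, adjusted p = 0.007), and 1455956_x_at at neither. The remaining Ccnd2 probe sets, 1416124_at and 1416123_at, averaged 13.1 and 9.25 over all arrays and were not tested.

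Markers of granulosa cells, the proliferating follicle cells attached to the oocyte, moved over the same stages. Of 16 listed, 15 were on the arrays with a single symbol and 13 were tested, and their summed signal lay between 3586 and 3917 in primordial, 4172 and 5352 in primary, 4239 and 5027 in secondary, 4807 and 5954 in small antral and 5583 and 6685 in large antral samples. Between large antral and primary samples 5 rose and 0 fell, where 12.8 percent of all probe sets rose and 14.2 percent fell: Gja1, the connexin of granulosa gap junctions (3.24), Esr2, the estrogen receptor beta (2.33 ± 0.29, adjusted p = 5.1e-07), Hsd17b1, Inha and Fst. Gja1 and Hsd17b1 passed the filter through the antral arrays and had to differ, so their changes support nothing here. Of the defining markers, Fshr changed by 0.16 (adjusted p = 0.45) and Foxl2 by -0.22 (adjusted p = 0.44). The granulosa hormone Amh (4.30 to 37.7) and Wt1 (6.95 to 91.2) reached 100 on 0 arrays. Markers of other ovarian cells moved as well. Surface epithelium markers summed to between 2635 and 3076 in large antral samples, against 1319 to 1713 in primary samples, and endothelial markers to between 727 and 924, against 407 to 607. Of the 4 tested in each list, 2 rose in both, with 1 epithelial marker falling. Krt7, Krt19 and Msln of the epithelial list and Cdh5 of the endothelial list were not tested and are not in the sums. Theca and stroma markers summed to between 1687 and 1877 in large antral samples, against 1114 to 1417 in primary samples. Their sum lacks Col3a1, Lum, Cyp17a1 and Pdgfra, which were not tested. The part of RNA from these cells in the Ccnd2 result was not tested.

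**Figure D2:**
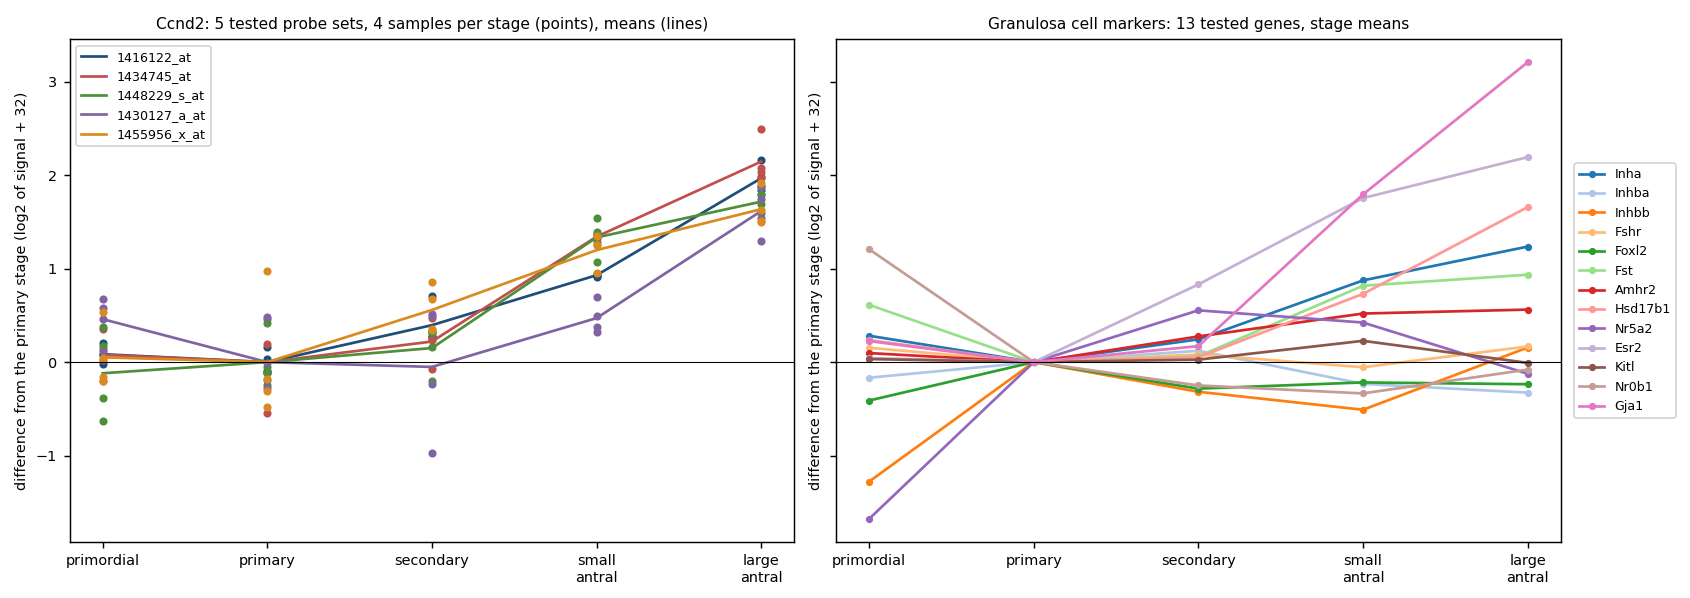
Difference from the primary stage of the same probe set (y axis, log2 of signal + 32) against follicle stage (x axis), for the 5 tested Ccnd2 probe sets (left, points are 4 samples per stage and lines their means) and for the 13 tested granulosa markers (right, log2 of the stage mean). All 5 Ccnd2 lines end above 1.5 in large antral samples, while the markers end between Gja1, highest, and Inhba, slightly below 0. The Ccnd2 probe sets 1448229_s_at, 1430127_a_at and 1455956_x_at passed the filter through the antral arrays and had to differ. The same holds for the markers Gja1 and Hsd17b1.

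Ccnd1, the cyclin D1 gene, gave no called change in any of the 5 comparisons. Its probe set 1448698_at averaged 396.5 ± 36.6, 416 ± 134, 368 ± 36.1, 437 ± 71.1 and 406 ± 75.8 from primordial to large antral (SD, n = 4 each). All stages adjacent in the order of levels overlapped, and the changes lay between -0.13 and 0.22. Between large antral and primary samples it was -0.01 ± 0.17 (adjusted p = 0.98). The 2 further Ccnd1 probe sets, 1417419_at and 1417420_at, stayed below the filter.

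Ccnd3, the cyclin D3 gene, gave answers that differed between its 3 tested probe sets. The probe set 1415907_at on 430A read 391, 315, 362 and 219.6 in primordial samples, 518, 479, 530.3 and 521 in primary samples and 366, 269, 336 and 443 in large antral samples. The primary samples lay above both other sets. It rose primary against primordial, by 0.65 ± 0.16 (adjusted p = 0.0012) and by 1.11 ± 0.31 with unmixed values (adjusted p = 0.0051). Large antral against primary it fell, at -0.51 ± 0.16 (adjusted p = 0.011), and missed with unmixed values (adjusted p = 0.24) and without large antral replicate 2 (adjusted p = 0.059). Without the primordial stage this fall was called (adjusted p = 0.005). The brighter 1444323_at on 430B averaged 682.5 ± 76.5, 662 ± 357, 723 ± 87.4, 813 ± 97.4 and 718.5 ± 239 in stage order and had no called change. Its primary samples ran from 191 to 949. The third, 1438805_at, had none either, with an SE of 0.48.

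Cdk4 and Cdk6 are the kinases of the D-type cyclins. No Cdk4 change was called. Cdk4 1422439_a_at averaged 106 ± 27.2 in primordial, 143 ± 11.4 in primary and 163 ± 5.18 in large antral samples, and its change primary against primordial was 0.36 ± 0.18 (adjusted p = 0.088). That change passed with quantile normalization (0.52, adjusted p = 0.021) and with scaling to a common median (0.48, adjusted p = 0.029). The brighter Cdk4 1422441_x_at differed by -0.15 ± 0.25 there as deposited (adjusted p = 0.63) and by 0.77 ± 0.38 with unmixed values (adjusted p = 0.099), so its direction turned.

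Cdk6 1435338_at, on 430B, read 96.9, 226, 292 and 226 in primary samples and 260.0, 457, 499.6 and 642 in large antral samples. The lowest large antral sample lay inside the primary range. The change, large antral against primary, was 1.05 ± 0.33 (adjusted p = 0.029). It missed with unmixed values (adjusted p = 0.16), in a fit of the 2 stages alone (adjusted p = 0.051) and without primary replicate 1 or large antral replicate 2, 3 or 4 (adjusted p between 0.061 and 0.13). The change passed without the primordial stage (adjusted p = 0.021). The second tested Cdk6 probe set, 1455287_at, gave 0.40 ± 0.28 (adjusted p = 0.45).

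Cdkn1a was the member with the sharpest loss at the first transition. Its probe set 1424638_at read 361, 449, 371 and 299 in primordial samples and 37.4, 167, 72.1 and 105.5 in primary samples. Every primary sample lay below every primordial sample. Primary against primordial it fell, to 0.297 times the signal on the log2(signal + 32) scale, a change of -1.75 ± 0.28 (adjusted p = 9.2e-06) and of -1.79 ± 0.31 with unmixed values (adjusted p = 6.3e-05). From there it averaged 107 ± 57.6 in secondary, 144 ± 20.3 in small antral and 105 ± 23.1 in large antral samples, and none of the later changes was called (adjusted p between 0.34 and 0.81). The other probe set, 1421679_a_at, reached 100 on 0 arrays. The 4 tested surface epithelium markers summed to between 1319 and 1713 in primary samples, against 949.9 to 1098 in primordial samples, with no overlap. Krt7, Krt19 and Msln of that list were not tested. Granulosa markers summed to between 4172 and 5352, against 3586 to 3917, and theca and stroma markers to between 1114 and 1417, against 1295 to 2042. Their part in the Cdkn1a result was not tested.

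Rb1, which holds E2F in check until phosphorylated, was lower in primary than in primordial oocytes and higher in large antral than in primary oocytes. Its probe set 1417850_at read 1196, 1507, 1711 and 1749 in primordial samples, 862, 1264, 1087 and 1184 in primary samples and 843, 1187, 1334 and 1191 in secondary samples. It read 1196, 1086, 1274 and 1351 in small antral samples and 1599.9, 1809.9, 1599.8 and 1539 in large antral samples. Stages adjacent in the order of levels overlapped, the primordial stage lying between small antral and large antral. The large antral samples lay above all primary, secondary and small antral samples. With unmixed values the primordial samples averaged 1970 ± 545 (SD, n = 4), above the large antral mean of 1637, where the deposited primordial mean of 1541 lay below it. Primary against primordial Rb1 fell, at -0.47 ± 0.14 (adjusted p = 0.0057), at -0.76 ± 0.18 with unmixed values (adjusted p = 0.0014) and at -0.32 with arrays scaled to a common median, where it missed (adjusted p = 0.095). The large antral level was higher than the primary level, by 0.57 ± 0.14 (adjusted p = 0.0018). The last step, large antral against small antral, was 0.41 ± 0.14 (adjusted p = 0.062). It passed with the replicate number as a block (adjusted p = 0.03), in a fit of the 2 stages alone (adjusted p = 0.025) and without the primordial stage (adjusted p = 0.049), and with unmixed values its adjusted p was 0.28.

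Of the 28 probe sets, 19 passed the filter of 100 on at least 4 arrays and 9 did not. The mean signals of the latter reached 63.9 and the lowest of the former was 70.0. Primary against primordial, 6 of the 19 were called, where 42.9 percent of all 34960 tested probe sets were. The 4 that rose stood against 18.6 percent rising among all and the 2 that fell against 24.3 percent falling. The members' share, 31.6%, lay below the background. With unmixed values 6 were again called, beside 34.7 percent of all (16.7 percent rising and 18.0 percent falling). Secondary against primary 3 were called beside 11.2 percent of all, 2 rising (6.01 percent of all) and 1 falling (5.17 percent), and with unmixed values 0 members were called beside 4.71 percent of all. Small antral against secondary 7 were called beside 10.4 percent of all, 3 rising (3.97 percent) and 4 falling (6.44 percent). The 3 rising are probe sets of 1 gene, Ccnd2, and the falling belong to 3 genes. Among the rising is 1448229_s_at, which passed the filter through the antral arrays and had to differ, so the rising count supports nothing. With unmixed values 7 were called again, beside 5.13 percent of all. The last step, large antral against small antral, had 4 called beside 5.72 percent of all, 3 rising (2.41 percent) and 1 falling (3.31 percent). The rising are again Ccnd2 alone. They include 1430127_a_at, which passed the filter mostly through the antral arrays, so this rising count supports nothing either. With unmixed values 2 were called, 1 rising and 1 falling, beside 1.44 percent of all. Over the longer span, large antral against primary, 12 were called beside 27 percent of all, 7 rising (12.8 percent) and 5 falling (14.2 percent), and with unmixed values 10 beside 19 percent of all. Of the 7 rising, 3 are the Ccnd2 probe sets that had to differ because they passed the filter through the antral arrays, so the count supports nothing. Over genes, with 1 called probe set enough, the last comparison had 3 rising (Ccnd2, Cdk6 and Rb1) and 4 falling (Ccnd3, Ccne1, Ccne2 and Cdk2). Ccnd3 is counted for 1415907_at, while its brighter 1444323_at changed by 0.27 (adjusted p = 0.67). With unmixed values 2 genes rose and 3 fell, without Cdk6 and Ccnd3. The share over all genes was not computed, so these gene counts support nothing. The median log2 change of the 19 was 0.03, 0.17, 0.16, 0.13 and 0.27 in the 5 comparisons, beside -0.16, -0.02, 0.00, 0.01 and -0.01 over all tested probe sets. The 3 Ccnd2 probe sets that had to differ are among the 19, so these medians support nothing.

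**Figure D3:**
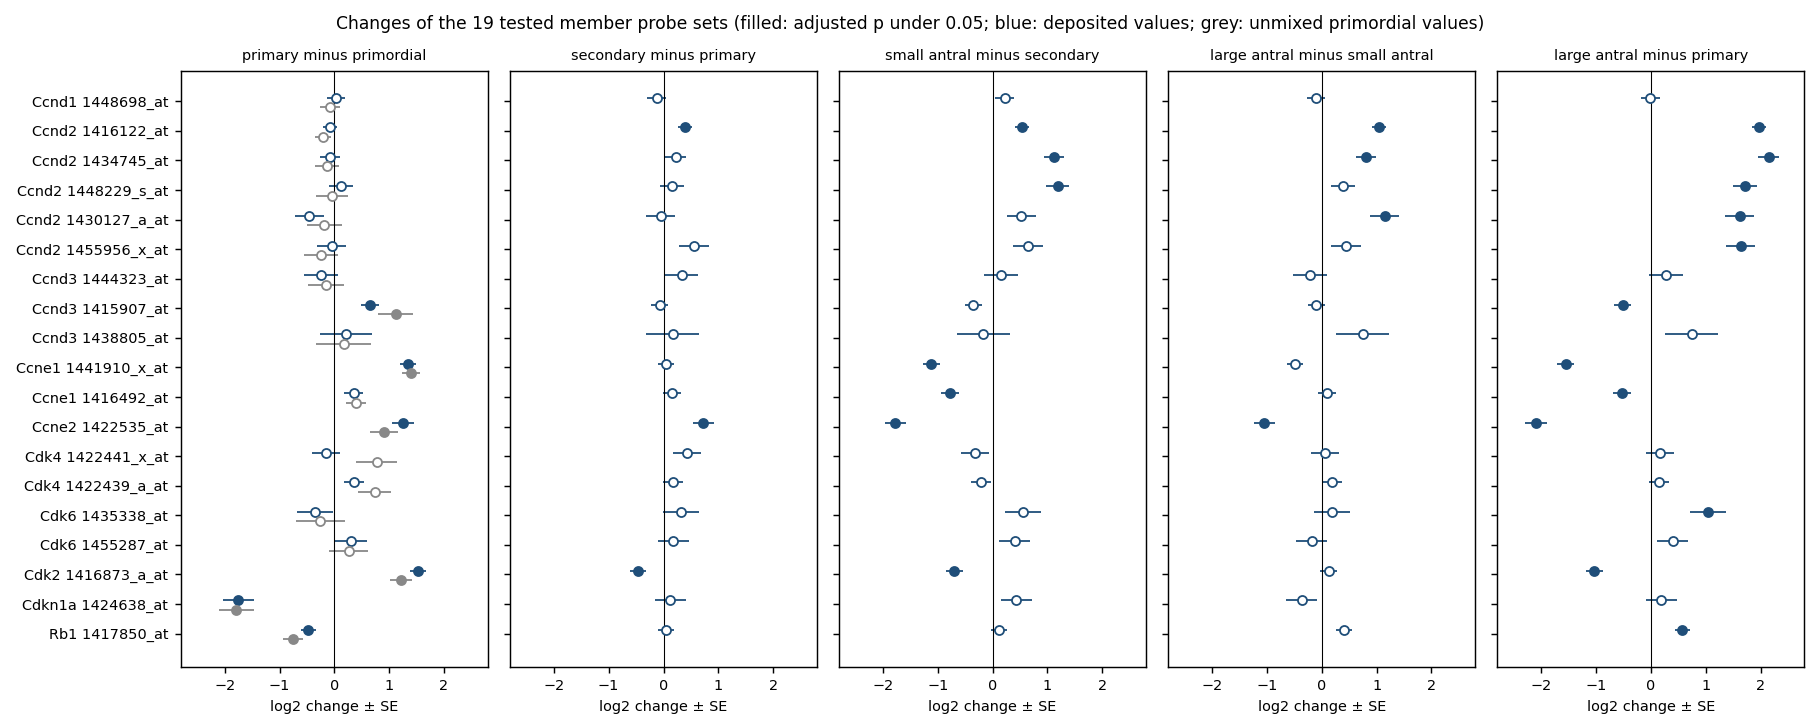
Log2 change ± SE (x axis) of the 19 tested probe sets (y axis) in the 5 comparisons (panels). Filled points have an adjusted p under 0.05, blue points use the deposited values and grey points the unmixed primordial values. Ccne1, Ccne2 and Cdk2 lie right of 0 in the first panel and left of 0 in the third, and the 5 Ccnd2 probe sets lie right of 0 in the last. Of these 5, 1448229_s_at, 1430127_a_at and 1455956_x_at passed the filter through the antral arrays and had to differ.

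The genes around these members were taken as lists. Primary against primordial 42.9 percent of all probe sets were called, 18.6 percent rising and 24.3 percent falling, and the counts of each list at that transition stand against these shares. Of the 7 other CDK inhibitors, 1 rose and 2 fell there, a count near the background. Cdkn2c, the p18 inhibitor of Cdk4 and Cdk6, rose by 1.0 ± 0.13 (adjusted p = 6e-07), while Cdkn2a (-0.70, adjusted p = 0.021) and Cdkn1c, the p57 inhibitor (-0.54, adjusted p = 0.035), fell. Cdkn2a read 143 to 175 in primordial samples and averaged 87.4 in primary samples. It passed the filter mostly through the primordial arrays and had to differ, so its fall supports nothing here. Cdkn1b, the p27 inhibitor, which like Cdkn1a blocks Cdk2, differed by -0.43 (adjusted p = 0.072). With unmixed values Cdkn1b passed (-0.70, adjusted p = 0.02) and Cdkn2a missed (adjusted p = 0.063). In the later comparisons Cdkn2b and Cdkn2a fell small antral against secondary (-0.61 and -0.89), Cdkn1b rose large antral against small antral by 0.63 (adjusted p = 0.043, and 0.18 with unmixed values), and Cdkn2b and Cdkn2c fell large antral against primary (-0.57 and -0.45).

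The Rb family, E2F factors and DREAM subunits, which between them repress and activate E2F target genes, had 17 tested genes. With unmixed values 7 rose and 5 fell primary against primordial, beside 16.7 percent of all rising and 18.0 percent falling. As deposited 7 rose and 4 fell there, beside 18.6 percent of all rising and 24.3 percent falling. The smallest adjusted p values belonged to Rbl1, the Rb relative p107 (1.32 ± 0.11, adjusted p = 3.5e-10), Lin54 (1.40 ± 0.12, adjusted p = 1.3e-09) and the activator E2f2 (1.38 ± 0.13, adjusted p = 5.8e-09). E2f7, a repressor of E2F targets, fell small antral against secondary, at -1.73 ± 0.21 (adjusted p = 4.7e-06), the transition at which the Ccne1, Ccne2 and Cdk2 signals also fell. Its 3 small antral samples with the conflicting protocol read between 251 and 284 and the other one 109.7, against 716 to 859 in secondary samples. Of the same list, Rbl1, Lin37 and E2f2 rose large antral against primary by 0.75, 0.76 and 0.69, among 5 that rose and 2 that fell beside 12.8 percent of all rising and 14.2 percent falling. With unmixed values these 3 were the ones that rose, and 1 fell, beside 19 percent of all called in either direction.

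All 6 CDK activation genes were tested. With unmixed values 4 rose and 1 fell primary against primordial, beside 16.7 percent of all rising and 18.0 percent falling. As deposited 4 rose and 2 fell there, beside 18.6 percent of all rising and 24.3 percent falling. Ccnh, the cyclin of the CDK-activating kinase, fell at -1.62 ± 0.11 (adjusted p = 5e-12), while its kinase Cdk7 rose by 1.30 ± 0.14 (adjusted p = 1.6e-08) and the phosphatase Cdc25b by 0.82 ± 0.14 (adjusted p = 2.1e-05). Ccnh then rose small antral against secondary by 0.81 (adjusted p = 6.8e-06), and large antral against primary by 1.0 (adjusted p = 4.8e-08). Of 10 tested genes for cyclin and p27 turnover, 2 rose and 6 fell primary against primordial, against the same shares. Cul1, the scaffold of the SCF ubiquitin ligases, rose by 1.71 ± 0.07 (adjusted p = 1e-15) and Ambra1, which targets D-type cyclins for degradation, by 1.36 (adjusted p = 3.8e-06). Large antral against primary 3 of these genes rose and 5 fell as deposited, where 12.8 percent of all rose and 14.2 percent fell. With unmixed values 2 rose and 4 fell, beside 19 percent of all called in either direction. As deposited, Ambra1 rose by 1.05 (adjusted p = 0.00017) and Skp2, which targets p27, by 0.82 (adjusted p = 0.00016). Cul3, the scaffold of another cyclin E ligase, fell at -2.58 ± 0.21 (adjusted p = 1.1e-09) and Fbxw7, which targets cyclin E, at -1.01 (adjusted p = 0.00014). Of 7 tested upstream genes, Mdm2, the ligase of p53, rose primary against primordial by 1.81 (adjusted p = 1.4e-11) and Foxo3, which holds primordial follicles dormant, fell at -0.90 (adjusted p = 1.1e-05).

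**Figure D4:**
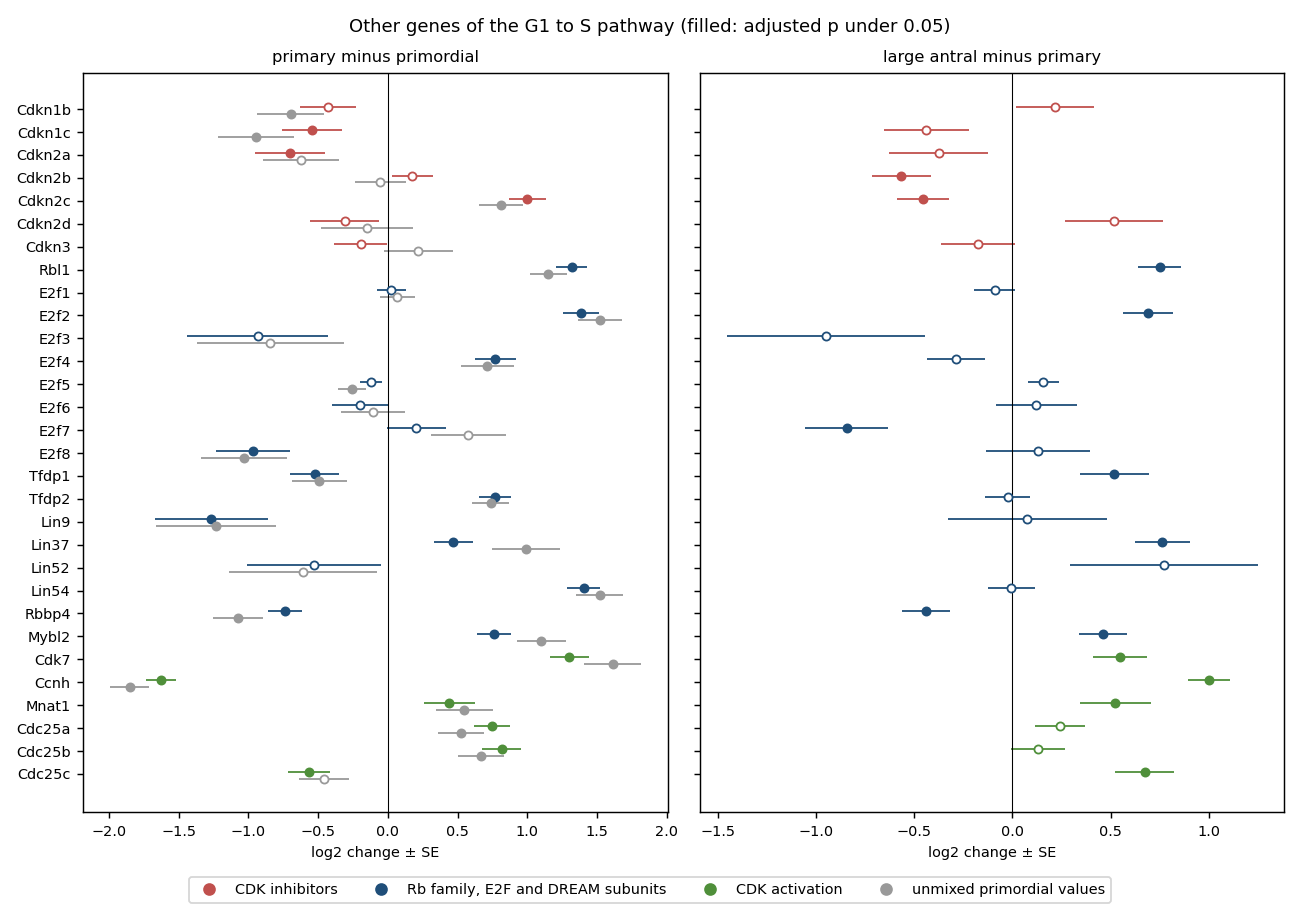
Log2 change ± SE (x axis) of the tested CDK inhibitors, Rb family, E2F and DREAM genes and CDK activation genes (y axis), primary minus primordial (left) and large antral minus primary (right). Filled points have an adjusted p under 0.05 and grey points use unmixed primordial values. Rbl1, E2f2 and Cdk7 lie right of 0 in both panels, and Ccnh lies left of 0 in the first and right of 0 in the second.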

How the data were processed

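Oocyte RNA was purified with a column kit for small samples, amplified and biotin-labelled, per the labels' protocols. The deposited values are array intensities per probe set from MAS5, per the submitters' processing notes, and the version and scaling are not given in the sources used here. Each array was brought to the same 2% trimmed mean, 500, after 64 control probe sets were set aside. Tests covered probe sets with a signal of 100 or more on 4 or more of the 20 arrays, which were 15845 on 430A and 19115 on 430B. Log2(signal + 32) was fitted for each array type apart by limma 3.58.1 (R 4.3.3), using lmFit, then eBayes with its trend option and two-sided tests, with all 20 arrays, 15 residual degrees of freedom and no block. Adjusted p-values are Benjamini-Hochberg over all probe sets of the array type. The number of arrays limits the precision.

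Groups came from the sample titles. Symbols came from the platform annotation: 20380 probe sets of 22626 on 430A and 14565 of 22411 on 430B had 1 symbol, and RefSeq matched 20351 and 14390. Each gene is led by its brightest tested probe set, with the others beside it. Of each list, up to 3 genes with the smallest adjusted p are named per comparison. Cdkn1b, Fshr and Foxl2 were also named, for their role. The genes, lists, tests and alternatives were chosen with earlier results of these data known. The procedure was tested on simulated data. The alternatives changed the normalization, pseudocount, filter, variance model, samples and replicates, added a replicate block and used unmixed primordial values.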

Additional observations from a re-analysis of the deposited data

Results flagged for a closer look

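Within-stage outliers were sought in 95 groups of 4 samples, 5 stages of 19 probe sets, and a Dixon test at its 95% critical value would pick about 1 in 20 by chance. It picked 5, each because 1 sample stood far from the other 3. Ccnd2 1416122_at read 266 in secondary replicate 1, where the others ran from 188 to 196. Ccnd2 1455956_x_at read 78.4 in primary replicate 3, beside 8.26 to 17.5. Ccne2 1422535_at read 550.1 in primary replicate 3, beside 709 to 734. Cdk4 1422441_x_at read 176 in secondary replicate 3, beside 193 to 195. Cdk6 1455287_at read 187 in primary replicate 3, beside 269 to 272. Without primary replicate 3, the change of Ccnd2 1455956_x_at secondary against primary was 0.88 (adjusted p = 0.015), and with all samples 0.56 (adjusted p = 0.17).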

How the results depend on the processing

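Of 32 called changes of single probe sets, 23 kept their call in every alternative and 9 lost it in at least one. Of 63 uncalled changes, 58 stayed so, and no called change turned its sign. With unmixed primordial values the member probe sets called numbered 0 in place of 3 secondary against primary and 2 in place of 4 large antral against small antral. Over all probe sets that alternative gave 1649 in place of 3911 secondary against primary, 1794 in place of 3640 small antral against secondary, and 505 in place of 2001 large antral against small antral. Leaving out 1 replicate at a time gave between 1 and 3 members secondary against primary, the lowest without primary replicate 2 or secondary replicate 1, and between 1301 and 2474 of all probe sets large antral against small antral, the lowest without small antral replicate 1 (1301) or large antral replicate 2 (1302). The other counts stayed within 1.5 times their value. A filter at 200 in place of 100 left 75 of the 95 changes.

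The replicate block changed 1 member call, Rb1 large antral against small antral (adjusted p = 0.03). Deviations of same-numbered samples correlated between -0.11 and 0.13 on 430A, over 0.1 in 3 of 40 pairs, and between -0.04 and 0.06 on 430B, so the numbers do not pair the samples. Signals near background limit the untested probe sets, and the median SE over probe sets was 0.17 on 430A and 0.34 on 430B.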

Other observations

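Cyclins and kinases with other roles also changed. Ccni, an atypical cyclin, fell primary against primordial at -2.86 ± 0.16 (adjusted p = 2.8e-13), beside Ccnl1 (-1.17) and Ccng1 (-1.46), among 4 that rose and 4 that fell of 13 tested, where 18.6 percent of all probe sets rose and 24.3 percent fell. Large antral against primary, Ccna2, the S-phase cyclin that also binds Cdk2, rose by 0.76 ± 0.08 (adjusted p = 3.4e-08), while Ccni (-1.45) and the transcription kinase Cdk9 (-1.28) fell, the last missing with unmixed values (adjusted p = 0.053).

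Over the 20 arrays of 430A, the probe sets of other genes most like Ccne2 in level were Alg13 (Pearson r = 0.966) and Fam98a (0.962), those most like Ccnd2 were Cxcr3 (0.967) and Pcyt1a (0.948), and those most like Cdkn1a were Sf3b6 (0.919) and Mrps24 (0.900). They came from 6495 to 6499 candidates whose stage means spanned at least 1 on the log2 scale, the arrays share stage, age and pool size, and no test was made.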
